A study of Mus musculus with 2 samples.

Results

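Accessible chromatin was described at 6 genes for transcription factors that pattern the embryonic forebrain: Lhx2, Emx1, Emx2, Otx1, Pax6 and Eomes. The 6 genes were chosen by name, from 21728 protein-coding genes in the annotation, and all 6 were found. For each gene, the peaks that overlapped the gene body or the 50 kb on either side were taken, and peaks at the gene's own start sites were kept apart from the rest. These windows overlapped 69 of the 72021 peaks of mouse 1 and 17 of the 59150 peaks of mouse 2. Another peak of mouse 2, just outside the Emx1 window, is counted below because it overlaps a peak of mouse 1 that reaches into it (Emx1 site 1).

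DNase-seq was used, an assay in which the enzyme DNase I cuts open DNA in isolated nuclei and the cut positions are sequenced. Cortex of the left hemisphere came from 2 male mice, 36 days old, of the B6CASTF1/J cross of C57BL/6J with CAST/EiJ, with 1 library per mouse and no treatment given in the labels. Both mice form 1 group, so no test between groups was possible and no p-value is given. The labels give them the same donor but different animal numbers. Mouse 1 is replicate 1 of the labels and mouse 2 is replicate 2. The alleles of the hybrid were not told apart, and sequences below are those of the C57BL/6J reference.

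The cortex arises from the dorsal part of the telencephalon, and its map of areas is laid down while neurons are still being born. Signals from the edges of the field, such as Wnt, BMP and FGF proteins, set graded levels of transcription factors in the dividing cells. Lhx2 acts early to give the cells cortical identity, Emx2 and Pax6 are expressed in opposite gradients along the sheet, and Eomes marks the intermediate progenitors that follow. At the age studied here the birth of cortical neurons is over, so these windows show the state of developmental genes in young adult tissue. Since the libraries come from whole tissue, fewer open cells and less cutting per open cell cannot be told apart.

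The height of a peak is the deposited signal at its summit. Within a library every height was a whole multiple of 1 step, to within 0.02 of a step, so that heights were read as counts of cuts scaled to depth. Read as cuts per 1 M cuts, the step puts the libraries at 160.1 M and 145.4 M cuts. Cut counts below are heights divided by the step, and intervals given below (Poisson, 95%) cover counting error only. Peaks of the mice that overlapped by at least 1 bp were joined to sites, of which there were 83641 in all and 68 in the 6 windows. Of 4 marker promoters of excitatory neurons, Camk2a (4.93 and 3.24), Nrgn (4.81 and 2.87) and Neurod6 had peaks in both mice, and Slc17a7 (2.49) in mouse 1 alone. Slc1a2 and Sox9 of astrocytes and Mbp and Olig1 of oligodendrocytes also had peaks in both. The other markers of these cells did not. Of astrocytes, Slc1a3 had a peak in mouse 1 alone (0.918), and Aqp4 and Gja1 had none. Of oligodendrocytes, Mog had a peak in mouse 2 alone (0.750), and Mag had none. Over all 27 markers, 8 had a promoter peak in both mice, 5 in mouse 1 alone, 2 in mouse 2 alone and 12 in neither. Of the markers of microglia (3) and endothelium (2), Trem2 in mouse 1 was the only one with a peak. The markers of 3 other tissues (Alb of liver, Acta1 of muscle, Cd3d of T cells) had no promoter peak. Of the 3 markers chosen for progenitors of the subventricular zone, Dcx and Nes had no peak and Mki67 had one in both mice, at 2.03 and 1.12.

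The sites that carry the distal part of the description were the 5 that lay over 1 kb from every annotated start site and were called in both mice. They are printed as the plus strand of GRCm38, with bases in capitals where a deposited footprint, a short stretch shielded from cutting inside a peak, was present in both mice.
Lhx2 site 7: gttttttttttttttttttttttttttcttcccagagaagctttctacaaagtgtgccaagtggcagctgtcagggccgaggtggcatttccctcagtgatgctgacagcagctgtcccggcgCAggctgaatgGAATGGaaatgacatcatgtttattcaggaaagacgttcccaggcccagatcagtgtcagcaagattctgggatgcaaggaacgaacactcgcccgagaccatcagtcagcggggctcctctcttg
Lhx2 site 10: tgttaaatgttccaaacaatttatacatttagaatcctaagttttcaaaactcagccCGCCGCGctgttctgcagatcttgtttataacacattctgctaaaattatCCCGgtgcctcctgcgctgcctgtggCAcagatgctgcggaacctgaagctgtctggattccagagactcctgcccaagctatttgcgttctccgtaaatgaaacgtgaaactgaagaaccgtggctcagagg
Emx1 site 6: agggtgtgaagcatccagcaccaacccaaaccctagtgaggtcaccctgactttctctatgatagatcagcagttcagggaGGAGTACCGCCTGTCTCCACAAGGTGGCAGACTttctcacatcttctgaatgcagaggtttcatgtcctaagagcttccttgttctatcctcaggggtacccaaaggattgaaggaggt
Emx2 site 1: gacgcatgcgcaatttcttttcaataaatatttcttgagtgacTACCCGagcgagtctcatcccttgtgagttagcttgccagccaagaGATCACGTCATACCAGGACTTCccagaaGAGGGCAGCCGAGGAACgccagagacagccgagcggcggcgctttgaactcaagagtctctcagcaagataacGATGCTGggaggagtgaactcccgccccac
Emx2 site 2: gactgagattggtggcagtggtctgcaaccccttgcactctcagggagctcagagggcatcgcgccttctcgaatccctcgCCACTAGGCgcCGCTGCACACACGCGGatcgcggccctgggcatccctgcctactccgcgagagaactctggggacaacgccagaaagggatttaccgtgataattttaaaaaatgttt

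The start sites of 4 factors held a footprint in both mice. For each, the widest footprint of either mouse that overlapped one of the other is given, among those of at most 30 bases. The stretches of Lhx2 and Emx2 are footprints of mouse 1, and those of Emx1 and Pax6 are footprints of mouse 2. At Emx1 the overlapping footprint of mouse 1 was longer, at 35 bases. Capitals mark bases in a footprint of both mice, and all of these stretches lie in annotated untranslated sequence.
Lhx2 promoter footprint: cggCGGGCGGCCaATGGCACGGC
Emx1 promoter footprint: CCGCCCCG
Emx2 promoter footprint: ccattctgggcccggatcCAGGC
Pax6 promoter footprint: tcggctggCGCGAGGCCCCgGCGCTGCTTt

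A promoter peak was taken as the highest peak whose midpoint lay within 1 kb of any annotated start site of the gene. In mouse 1, 5 of the 6 factors had one, against 63.3% of protein-coding genes. In mouse 2, 4 of 6 had one, against 58.2%. The factors with a peak in both mice were Lhx2, Emx1, Emx2 and Pax6, 4 of 6 against 57.4% of protein-coding genes, which is near the background. Otx1 had a peak in mouse 1 alone, which held for 5.92% of protein-coding genes, and a peak in mouse 2 alone, found for 0.759% of protein-coding genes, was seen for none of the 6.

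**Figure D1:**
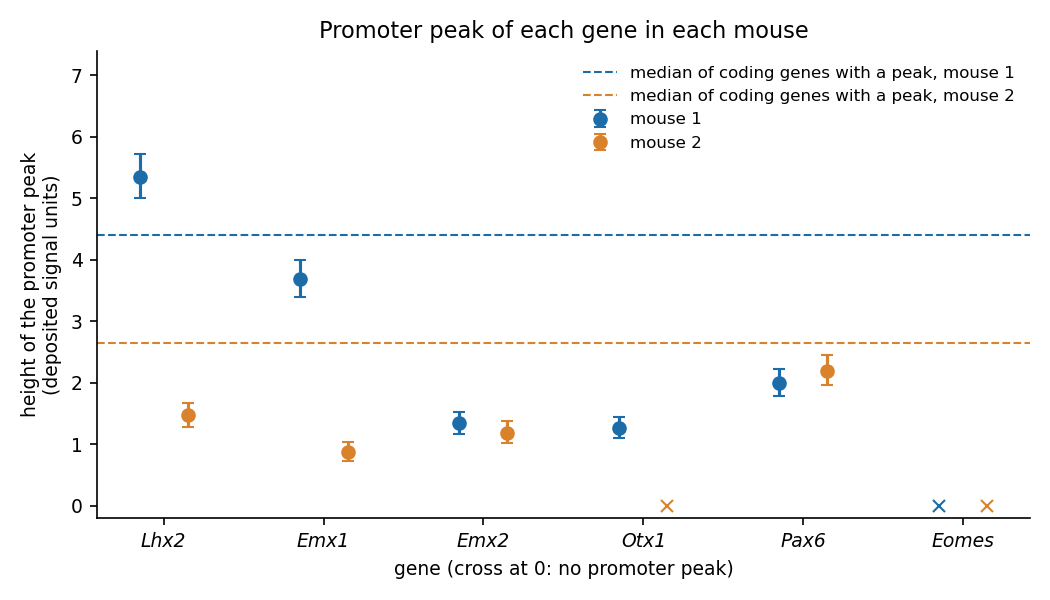
Height of the promoter peak (y axis, deposited signal units) of each factor (x axis) in mouse 1 (blue) and mouse 2 (orange), with 95% Poisson intervals for counting error; crosses at 0 mark no promoter peak and dashed lines the median of protein-coding genes with a peak. Only Lhx2 in mouse 1, at 5.35, stood above its line (4.40), and the mice differed most at Lhx2 and Emx1.

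Lhx2 encodes a LIM-homeodomain protein that gives the early telencephalon its cortical identity. Its promoter peak had a height of 5.35 in mouse 1 (interval 5.00 to 5.72, 857 cuts) and 1.47 in mouse 2 (1.28 to 1.68, 213 cuts). The peak of mouse 1 was the higher by a log2 ratio of 1.87, and the intervals did not overlap. It lay at chr2:38350881-38351160 in mouse 1, with its midpoint 262 bp past a start site at position 38350759, which is 11.74 kb (to the site's midpoint) inside the gene. At the 5′ end of the longest transcript there was a lower peak in mouse 1 alone, Lhx2 site 1, with a height of 1.36. The mean over the mice at the inner start was 3.41 ± 2.75 (SD, n = 2). Emx1, a homeobox gene of the dorsal telencephalon and of the excitatory neurons born there, had a similar gap between the mice. Its promoter peak reached 3.68 in mouse 1 (interval 3.39 to 3.99, 589 cuts) and 0.867 in mouse 2 (0.722 to 1.03, 126 cuts), a log2 ratio of 2.09. The peak of mouse 1 covered chr6:85187341-85187720 around the gene's start, and that of mouse 2 covered 80 bp inside it. A second peak downstream, Emx1 site 9, was present in mouse 1 alone with a height of 1.62.

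These gaps were wide even for this pair of libraries. Mouse 1 had the higher promoter peak in general, with a median log2 ratio of 0.73 over the 12472 protein-coding genes with a peak in both mice. The log2 ratio of Lhx2 was above that of 98.5% of those genes, and that of Emx1 above 99.5%.

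Emx2, the relative of Emx1 expressed most strongly in the posterior and medial cortical field, had about the same promoter height in both mice. The highest peak was 1.34 in mouse 1 (interval 1.16 to 1.53, 214 cuts) and 1.18 in mouse 2 (1.01 to 1.37, 172 cuts). The intervals overlapped, and the mean was 1.26 ± 0.108 (SD, n = 2). The highest peak was not at the same place, however: relative to the gene start its midpoint lay at 216 bp in mouse 1 (chr19:59458444-59458731) and at -864 bp in mouse 2 (chr19:59457401-59457615). Both places were called in both mice. At the place past the start the heights were 1.34 and 0.881, and at the upstream place they were 0.893 and 1.18, so that each mouse was the higher at one of them. Emx2 shares its 5′ end with Emx2os, an antisense transcript, and DNase cuts carry no strand by which to divide them.

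Pax6 encodes a paired-box and homeodomain protein that is strongest in the anterior and lateral field and is needed in radial glia. Its highest promoter peak was 1.99 in mouse 1 (interval 1.78 to 2.22, 319 cuts) and 2.19 in mouse 2 (1.95 to 2.44, 318 cuts). The mice did not differ beyond counting error, and the mean was 2.09 ± 0.138 (SD, n = 2). Pax6 has 24 annotated start sites, and this peak, at chr2:105675261-105675600 in mouse 1, sat on one of the inner ones, 6.53 kb from the first. Relative to other genes it was mouse 2 that stood high here, since the ratio of mouse 1 over mouse 2 at Pax6 was above that of only 5.51% of protein-coding genes with a peak in both mice. The ratio at Emx2 was above that of 15.4% of them, but it sets peaks at 2 different places against each other. At the same place the Emx2 log2 ratios were 0.60 past the start and -0.41 upstream.

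At the outermost Pax6 start a low peak was called in mouse 1 alone, Pax6 site 1, with a height of 0.356. The 250 bases before the outermost start are given because they held a full cyclic-AMP response element (CRE) pattern; capitals mark bases in a footprint of mouse 1.
Pax6 upstream: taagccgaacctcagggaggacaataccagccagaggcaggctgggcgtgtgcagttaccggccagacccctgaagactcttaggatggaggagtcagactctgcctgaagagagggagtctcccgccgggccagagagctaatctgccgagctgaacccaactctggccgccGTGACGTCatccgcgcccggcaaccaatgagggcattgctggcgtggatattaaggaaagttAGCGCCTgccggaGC
The pattern TGACGTCA stands at bases 175 to 182, and 7 of its 8 bases lay in a footprint of mouse 1. It was present in 2 of the 68 member sites (2.94%) and in 1.05% of all sites.

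Otx1, an orthodenticle homeobox gene used in the early forebrain and later in deep-layer neurons, had its highest promoter peak at 1.26 in mouse 1 (interval 1.09 to 1.45, 202 cuts). Mouse 2 had no peak there. The deposited list of false discovery rates gave a rate of at most 0.05 for 99.4% of the bases within 1 kb of an Otx1 start in mouse 1, and for 0 bases in mouse 2. Eomes encodes the T-box factor Tbr2 of intermediate progenitors, cells that are largely gone from the cortex at this age. Neither mouse had a peak at its promoter. In the longer of the deposited peak lists, mouse 1 had a peak of height 0.512 at an Eomes start and mouse 2 had none. Of the bases within 1 kb of its starts, 750 had a rate of at most 0.05 in mouse 1 and 0 in mouse 2. The upstream sequence is given as the one promoter of the 6 without a peak, and it has no capitals because no footprint lay there inside a peak.
Eomes upstream: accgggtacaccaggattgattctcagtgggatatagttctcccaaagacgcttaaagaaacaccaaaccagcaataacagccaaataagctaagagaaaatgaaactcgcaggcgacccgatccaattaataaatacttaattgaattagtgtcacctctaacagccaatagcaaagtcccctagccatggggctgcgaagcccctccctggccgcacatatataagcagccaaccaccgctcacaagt

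By mean height the order was Lhx2, Emx1, Pax6, Emx2, Otx1 and Eomes, but the order within each mouse differed. Mouse 1 followed the order of the means, while in mouse 2 it was Pax6, Lhx2, Emx2 and Emx1. Lhx2 was above Emx1 in both mice with intervals apart, and so was Pax6 above Emx2. Lhx2 and Pax6 changed places between the mice, and so did Emx1 with Pax6 and with Emx2. The intervals of Emx1 and Emx2 overlapped in mouse 2, however (0.722 to 1.03 and 1.01 to 1.37). The intervals of Emx2 and Otx1 overlapped in mouse 1 (1.34 and 1.26), and Otx1 had no peak in mouse 2. The order also rests on the inner start sites: with the annotated gene start alone, the mean fell to 0.681 at Lhx2 and 0.262 at Pax6, below Emx1 (2.27) and Emx2 (1.26). Compared with all protein-coding genes, genes without a peak included, the Lhx2 peak exceeded 75.5% of genes in mouse 1 and 56.6% in mouse 2, and the Pax6 peak exceeded 49.7% and 65.8%.

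The 68 sites comprised 23 at the factors' own promoters, 7 at promoters of other genes and 38 distal sites, which lay in exons (6), introns (16) or between genes (16). Of all 68, 14 were called in both mice, 50 in mouse 1 alone and 4 in mouse 2 alone. Both mice thus had a peak at 20.6% of the sites, against 52.5% of all sites in the genome. Mouse 1 alone had 73.5% of them, against 31.1% of all sites. Sites in mouse 2 alone made up 16.4% of all sites. Without the Otx1 window, 14 of 51 sites were shared (27.5%).

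**Figure D2:**
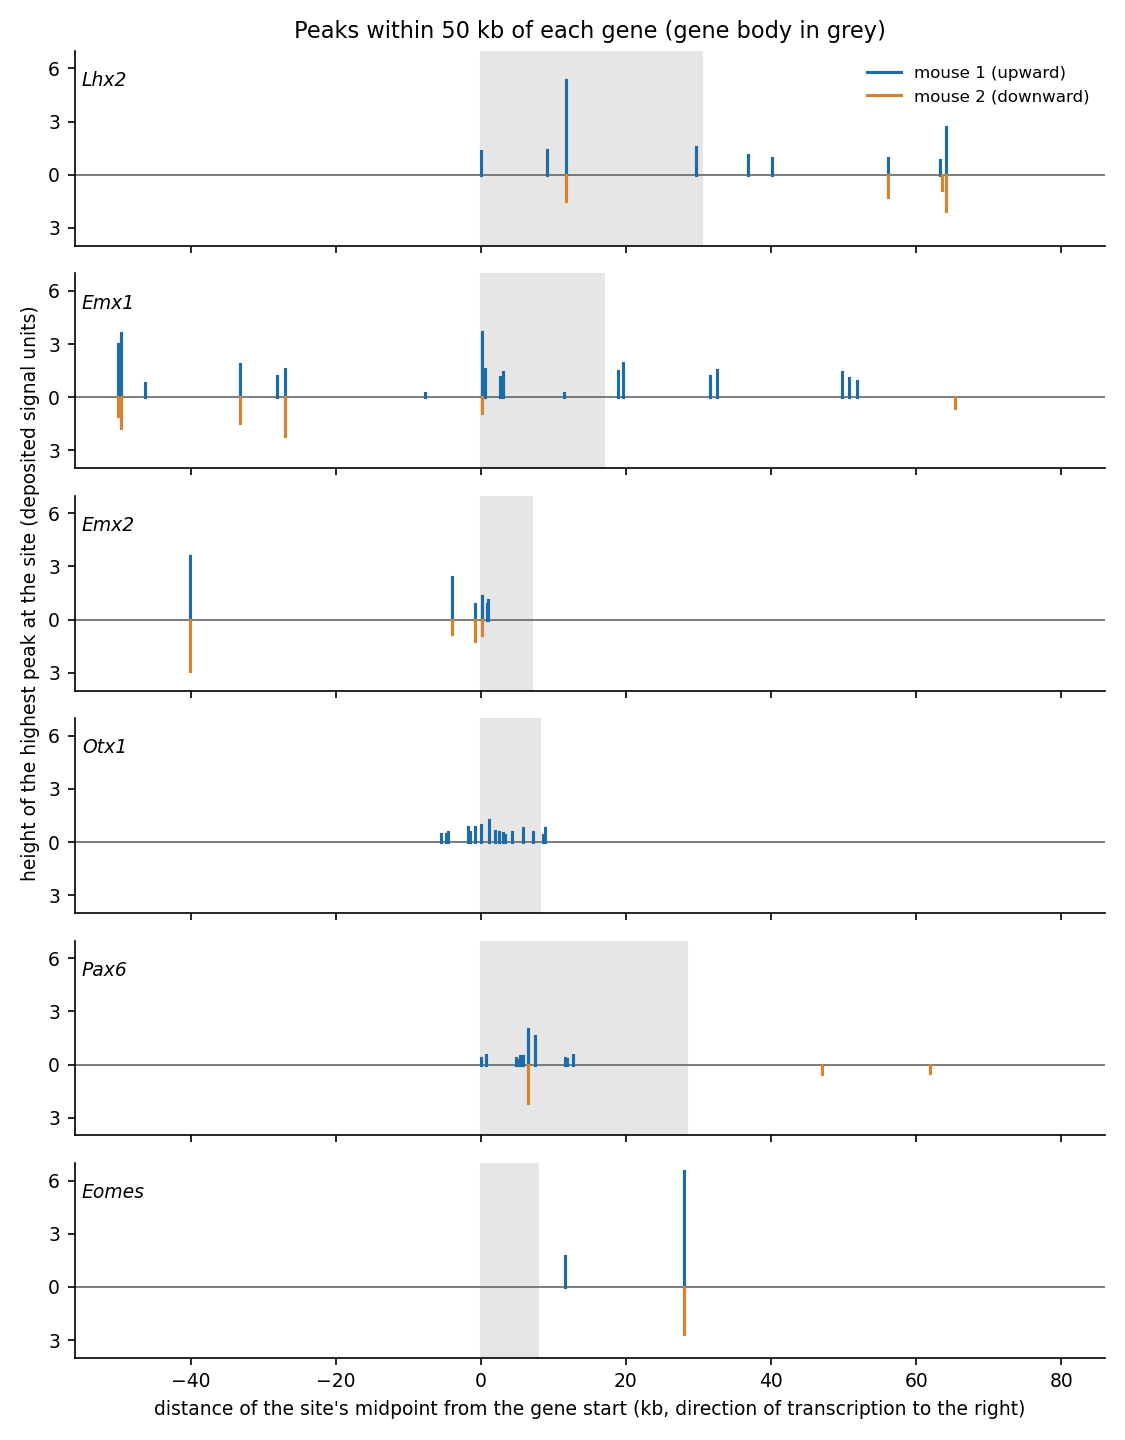
Height of the highest peak at each site (y axis, deposited signal units, mouse 1 upward in blue and mouse 2 downward in orange) against the distance of the site's midpoint from the gene start (x axis, kb), for the 6 factors, with gene bodies in grey. Sites with a bar both up and down are called in both mice, of which there were 14 of 68; the low cluster at Otx1 has bars of mouse 1 only.

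Lhx2 had 10 sites in its window, 3 of them shared. Both of its shared distal sites lay downstream of the gene, between genes. Lhx2 site 10, at chr2:38403261-38403500 and 64.1 kb from the gene start, had heights of 2.67 and 2.06. Lhx2 site 7, at chr2:38395281-38395540, had heights of 0.931 and 1.27, and mouse 2 was the higher there. Site 10 was thus higher than the Lhx2 promoter peak in mouse 2 and lower than it in mouse 1. The highest distal peak in mouse 1 alone was Lhx2 site 4, in an Lhx2 exon, at 1.57. Close before site 10 stood a peak of mouse 1 alone, Lhx2 site 8 (0.856), and, separate from it, a peak of mouse 2 alone, Lhx2 site 9 (0.853). In the longer lists these peaks are wider and overlap.

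Emx1 had the most sites, 20, of which 5 were shared. Of the shared ones, 3 were promoters of other genes: 2 sites at Spr, a gene for an enzyme of tetrahydrobiopterin synthesis, and 1 at its pseudogene Spr-ps1. The highest of these was Emx1 site 2 at the Spr promoter, with 3.60 in mouse 1 and 1.73 in mouse 2. The one shared distal site was Emx1 site 6, at chr6:85160301-85160500, at -27.04 kb from the gene start and between genes. Its heights were 1.57 in mouse 1 and 2.19 in mouse 2. Here mouse 2 was the higher, the reverse of the Emx1 promoter, where mouse 1 was the higher by 4.24 times. Of the distal sites printed above, Emx1 site 6 has the longest unbroken run of bases with a footprint in both mice, 33 bases. Another 14 sites were called in mouse 1 alone, among them 5 in introns of the neighbouring gene Sfxn5 and 3 in introns of Emx1 itself. The highest distal one was Emx1 site 14, downstream of the gene, at 1.93. In the longer of the deposited peak lists, mouse 2 also had a peak at some of these sites, such as Emx1 site 19 (0.893 and 1.00). At others, such as Emx1 site 14, it had none. With the longer lists, the shared distal sites of the Emx1 window went from 1 to 8.

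Emx2 had 6 sites and shared 4 of them, the largest share of the 6 windows. Emx2 site 1, at chr19:59418101-59418320 and at -40.16 kb from the gene start, was its highest site, with 3.60 in mouse 1 and 2.89 in mouse 2 (3.25 ± 0.505, SD, n = 2). In both mice it was higher than the highest Emx2 promoter peak (1.34 and 1.18). Emx2 site 2, at chr19:59454301-59454500, lay at -3.97 kb from the start, in an intron of Emx2os. Its heights were 2.42 and 0.812, so that mouse 1 was the higher by a log2 ratio of 1.57. Both sites were also called in the longer peak lists.

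Pax6 and Eomes had no shared distal site, and neither did Otx1. The median protein-coding gene had 1 shared distal site in a window of this kind, and 29.4% of protein-coding genes had 0. Of the 13 Pax6 sites, 11 lay at one of its many start sites and only the inner promoter peak was shared. The remaining 10 of those promoter sites were called in mouse 1 alone, and 9 of them were low, between 0.281 and 0.543. The tenth, Pax6 site 8, reached 1.60 in mouse 1, with 11 footprints, at chr2:105676101-105676740. The 2 distal sites, Pax6 site 12 and Pax6 site 13, were called in mouse 2 alone and lay in introns of the neighbouring gene Elp4, at 0.516 and 0.488. Introns of Elp4 are known to hold enhancers of Pax6; whether these sites are among them was not tested. Eomes had only 2 sites in its window. Both were promoters of other genes, and the higher was that of Golga4, a gene for a Golgi protein, with 6.55 in mouse 1 and 2.63 in mouse 2. The other, at the noncoding gene Gm33460, was called in mouse 1 alone at 1.77.

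**Figure D3:**
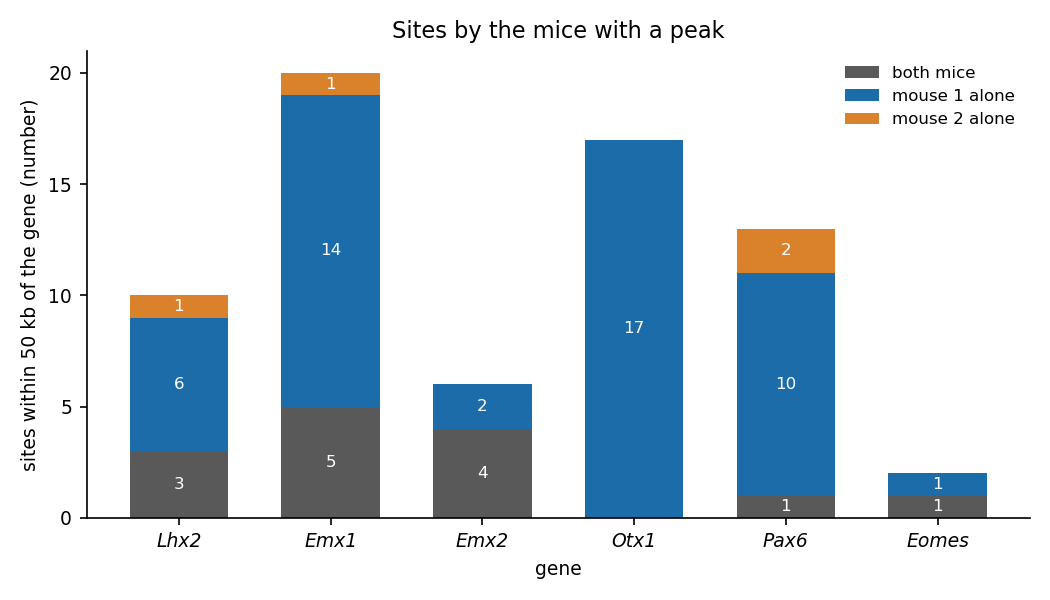
Number of sites within 50 kb of each factor (y axis) by the mice with a peak at the site: both mice (grey), mouse 1 alone (blue) or mouse 2 alone (orange). Emx2 shared 4 of 6 sites and Otx1 shared 0 of 17.

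The Otx1 window had a form of its own. In mouse 1, 21 peaks stood in 17 sites over 14.6 kb, at chr11:21993801-22008390, from beyond the 3′ end of the gene to an intron of the neighbouring gene Ehbp1. Site heights ran from 0.406 to 1.26 with a median of 0.593, and 16 of 17 were below the median peak of the library (1.18). Widths varied: 10 of the 17 sites were wider than the median peak of 205 bp, and one peak of 2120 bp was the widest of all 72021 peaks of mouse 1. They held 67 footprints. Mouse 2 had no peak in the window in either deposited list, and no base of the span had a false discovery rate of at most 0.05 there, against 11111 bases in mouse 1. A stretch of 300 bases from Otx1 site 12, before the outermost start, is given as an example of this chromatin, with capitals for footprints of mouse 1.
Otx1 site 12: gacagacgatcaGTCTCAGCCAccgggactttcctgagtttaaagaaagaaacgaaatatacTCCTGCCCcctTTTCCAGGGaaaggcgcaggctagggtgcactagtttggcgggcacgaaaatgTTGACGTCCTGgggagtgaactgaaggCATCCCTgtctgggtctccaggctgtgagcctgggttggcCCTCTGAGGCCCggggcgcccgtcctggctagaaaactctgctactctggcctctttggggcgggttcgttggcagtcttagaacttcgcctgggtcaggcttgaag

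The share of bases under peaks puts this in numbers. Over the gene and 10 kb on either side, peaks of mouse 1 covered 24.2% at Otx1, 5.61% at Pax6, 4.33% at Emx1, 3.28% at Emx2, 1.80% at Lhx2 and 0.645% at Eomes. The median protein-coding gene had 1.00%, and Otx1 ranked 5 among 21728 genes. In mouse 2 the shares were 0% at Otx1, 0.619% at Pax6, 0.216% at Emx1, 1.92% at Emx2, 0.515% at Lhx2 and 0% at Eomes, where the median gene had 0.738%. A higher share in mouse 1 than in mouse 2 was also found at genes outside the 6. Hoxd13 and Hoxd12, homeobox genes of the limb and hind body named after their values were seen, had 22.4% and 22.2% in mouse 1 and 0.734% and 0.379% in mouse 2.

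**Figure D4:**
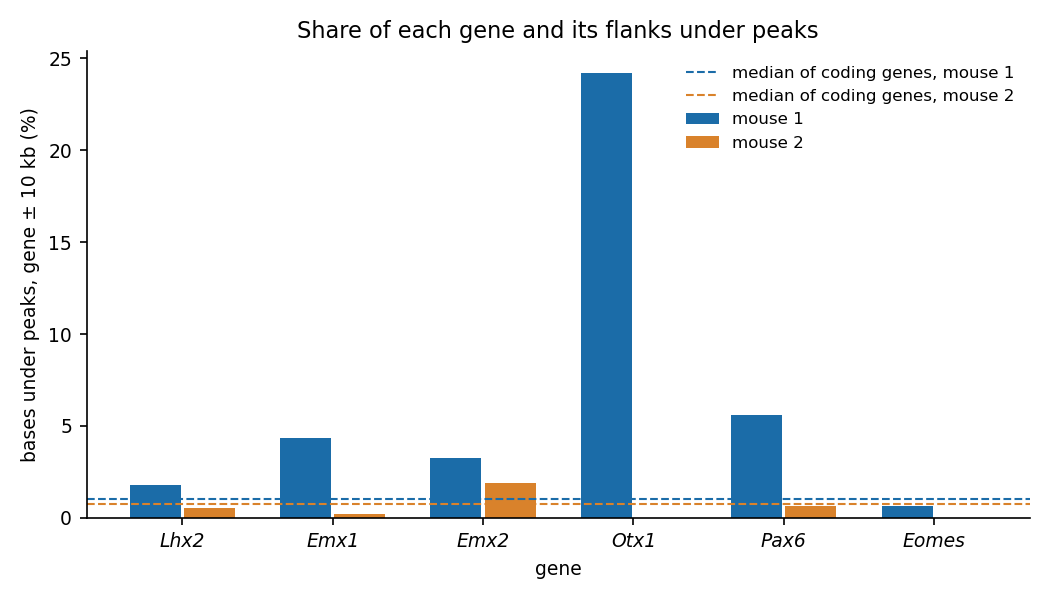
Share of the gene and 10 kb on either side that lay under peaks (y axis, %) for each factor in mouse 1 (blue) and mouse 2 (orange); dashed lines mark the median protein-coding gene. Otx1 in mouse 1 stands at 24.2% and has no bar in mouse 2.

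Some differences between the mice went with base composition, whose part in these results was not tested. All sites of the genome were divided into 4 classes of equal size by their content of G and C. From the lowest to the highest class, sites in mouse 2 alone fell from 31.2% to 7.06% of sites, and the median log2 ratio of mouse 1 over mouse 2 at shared sites went from 0.12 to 0.89. The share of sites in mouse 1 alone did not follow the same order, at 23.4% in the lowest class, 36.7% in the third and 31.2% in the highest. Of the 68 member sites, 30 lay in the third class and 22 in the highest. In those classes mouse 1 alone held 25 of 30 and 17 of 22 member sites, against 36.7% and 31.2% of all sites there. The 50 member sites of mouse 1 alone had a median of 58.4% G and C, the 14 shared sites 58.0% and the 4 sites of mouse 2 alone 45.4%. Over all sites the medians were 54.4% for mouse 1 alone, 54.4% for shared sites and 49.2% for mouse 2 alone.

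At the 14 shared sites the median log2 ratio of mouse 1 over mouse 2 was 0.50, with a range from -0.48 to 2.09, and mouse 1 was the higher at 10 of 14. Over all shared sites the median was 0.46, and mouse 1 was the higher at 79.5%. The member sites therefore stood near the whole in their centre. Mouse 2 was the higher at 4 sites: Emx1 site 6, Lhx2 site 7, the upstream Emx2 promoter site and the inner Pax6 promoter.

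At these sites, footprints lying wholly inside a peak of the same mouse numbered 169 in mouse 1 and 58 in mouse 2, of which 3 were in the mouse 2 peak just outside the Emx1 window. Of those of mouse 1, 26 overlapped a footprint of mouse 2: 9 in the Emx1 window, 7 at Lhx2, 6 at Emx2, 2 at Pax6, 2 at Golga4 in the Eomes window and 0 at Otx1. At the 50 sites of mouse 1 alone no footprint of mouse 2 could be counted.

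Short sequence patterns were searched on both strands of each site. The SP/KLF pattern GGGCGG stood in 19 of 68 member sites (27.9%) and in 23.3% of all sites. It lay inside a footprint in 8 member sites (11.8%), against 11.3% of all sites, and the Lhx2 and Emx1 promoter footprints printed above are among them. In the Lhx2 footprint it reads GGGCGG at bases 5 to 10, and in the Emx1 footprint it stands on the minus strand at bases 1 to 6. Among distal sites, 8 of 38 member sites held it (21.1%), against 9.45% of all distal sites. These included Otx1 sites 4, 8, 13 and 14, which stand in the 1 cluster of mouse 1 described above. Emx2 site 1 was the only one of the 8 called in both mice, and the rest were of mouse 1 alone. Inside a footprint it lay in 2.63% of the distal member sites, against 3.51% of all distal sites.

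Patterns of the factors' own kinds were rare. The homeodomain core TAATTA stood in 3 member sites (4.41%, against 2.53% of all sites): both Emx2 promoter sites that were shared and Pax6 site 2. The Otx pattern TAATCC stood in 4 (5.88%, against 4.12%), and the T-box pattern AGGTGTGA in 3 (4.41%, against 0.984%), namely Emx1 site 7, Emx1 site 10 and Otx1 site 15, all of mouse 1 alone. None of these matches lay inside a footprint, which was rare over all sites too, at 0.106% for TAATTA, 0.262% for TAATCC and 0.0574% for AGGTGTGA. E-box patterns, read by bHLH factors, stood in 11 member sites as CAGATG (16.2%, against 20.9%) and in 8 as CAGCTG (11.8%, against 18.9%). The CAGATG of Lhx2 site 10 and the pair of CAGCTG in Lhx2 site 7 are examples, neither inside a shared footprint. CAGATG lay inside a footprint in 3 member sites (4.41%, against 4.3% of all sites): Emx1 site 13, Emx1 site 14 and Eomes site 1, all of mouse 1 alone. CAGCTG lay inside a footprint in 0 member sites, against 3.89% of all sites. The AP-1 pattern TGANTCA stood in 2 member sites (2.94%) and in 10% of all sites. The NFI pattern TTGGCA stood in 8 (11.8%, against 16.2%), and the RFX pattern GTTGCC in 5 (7.35%, against 11%). SOX (ACAATG) matched 1 member site (1.47%, against 7.46% of all sites). Egr (GCGTGGGCG), MEF2 and CTCF matched 0 of 68, against 0.6%, 2.36% and 3.1% of all sites. A match is a description of letters, and its absence says only that these letters are not in the window. With sites cut to windows of 200 bp the shares were 29.4% against 21% for GGGCGG and 4.41% against 0.909% for AGGTGTGA. For TAATTA they came close, at 2.94% against 2.63%. For TAATCC the order was reversed, at 1.47% against 3.9%, so that its higher share in whole sites did not hold at equal width. A setting with 1 mismatch allowed was added after the matches were seen. With it the CTCF pattern stood in 5 member sites (7.35%) and in 10.5% of all sites. All 5 matches lay wholly inside a footprint of at least 1 mouse. At Emx2 site 1, 15 of its 15 bases lay in a footprint of mouse 1 and 9 in one of mouse 2. At Emx1 site 4 the numbers were 7 and 15, and the rest were sites of mouse 1 alone. The share of such matches inside footprints was not counted over all sites.

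The other genes of the patterning system were taken as 6 lists with 65 genes, of which 27 had a promoter peak in both mice, 17 in mouse 1 alone, 1 in mouse 2 alone and 20 in neither. The shares over all protein-coding genes were 57.4%, 5.92% and 0.759% for both mice, mouse 1 alone and mouse 2 alone, and the counts below are to be read against them. Among the signals of the patterning centres, 3 of 10 had a peak in both mice: Fgf18 at 3.12 and 2.44, Shh, the ventral signal, at 2.20 and 0.736, and Fgf15 at 1.06 and 1.07. Fgf8, the signal of the anterior centre, had a peak of 0.562 in mouse 1 alone, as did Wnt5a at 0.974, and Bmp4 and Fgf17 had none in either mouse. Among receptors and effectors, 7 of 10 had a peak in both mice and none lacked one altogether. Ptch1, the hedgehog receptor, stood at 3.65 and 3.74, and Bmpr1a, a BMP receptor, at 5.10 and 1.88. The difference between these lists was not tested.

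Among other factors of pallial progenitors, 6 of 16 had a peak in both mice, among them Hes1 (4.45 and 3.06), a Notch target, and Sox2 (2.32 and 1.23), a stem cell factor. Another 4 had a peak in mouse 1 alone, Nr2f1 at 1.77, Insm1 at 1.80, Dmrta2 at 1.14 and Neurog2 at 0.912, and 6 had none, among them Dmrt3 and Fezf1. Among factors of postmitotic cortical neurons, 7 of 8 had a peak in both mice. Neurod2 stood at 3.25 and 1.49, and Bcl11b, of neurons that project below the cortex, at 1.59 and 2.41. Fezf2 had a peak in mouse 1 alone, at 1.39. The subpallial factors, which pattern the ventral telencephalon and its interneurons, had 0 of 8 in both mice, 4 in mouse 1 alone (among them Dlx5 at 1.09, Dlx2 at 0.987 and Lhx6 at 0.806) and Dlx1 in mouse 2 alone at 1.01. Inhibitory neuron markers were low too: Gad1 and Gad2 had peaks in mouse 1 alone, at 1.22 and 0.831, and Slc32a1 in mouse 2 alone at 1.07. Of 13 relatives and partners of the 6 factors, 4 had a peak in both mice, and all 4 were partners or regulators of LIM proteins: Lmo4 (6.00 and 3.50), Ldb1 (4.70 and 1.66), Ldb2 (1.82 and 1.03) and Lmo3 (1.31 and 1.33). Crx and Lhx9 were among the 6 with none.

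**Figure D5:**
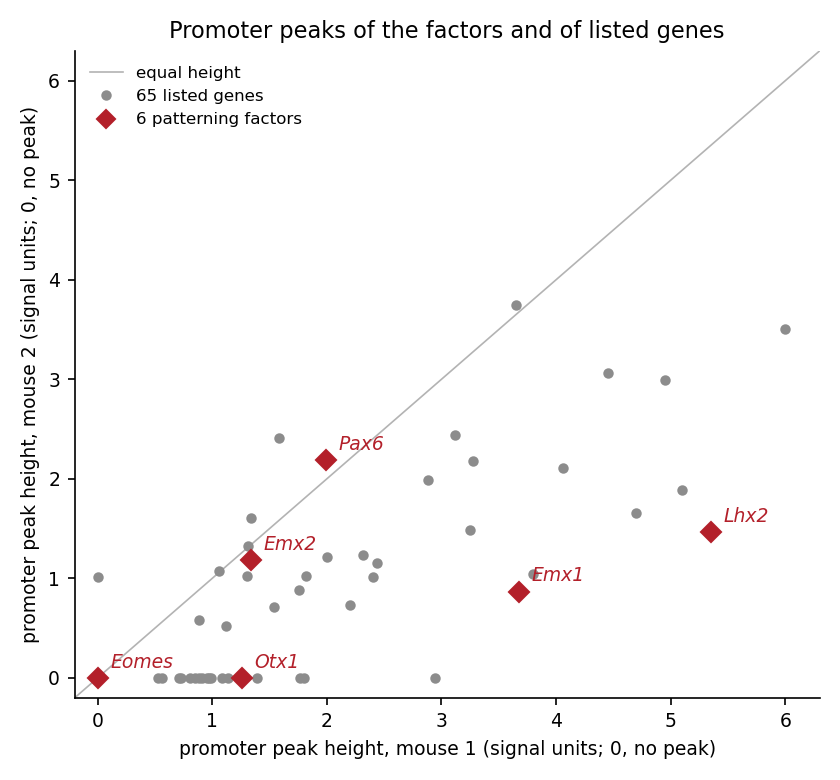
Promoter peak height in mouse 2 (y axis) against mouse 1 (x axis), both in deposited signal units with 0 for no peak, for the 65 listed genes (grey) and the 6 factors (red); the line marks equal height. Lhx2 and Emx1 lie far below the line, at 5.35 and 1.47 and at 3.68 and 0.867, while Pax6 lies just above it at 1.99 and 2.19.

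By mean promoter height on the log2 scale, over 2 libraries, the listed genes nearest to Lhx2 were Bmpr1a, Ldb1 and Ptch1. Ldb1, whose protein binds LIM-homeodomain proteins, also had a gap between the mice (4.70 and 1.66). Nearest to Emx1 were Neurod2, Lrp6 and Fgfr1, and nearest to Pax6 were Bcl11b, Neurod2 and Lrp6. Emx2 was nearest to Bhlhe22, Lmo3 and Nr2e1, all with heights between 0.881 and 1.76. Likeness here is of height alone, in 2 libraries.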

How the data were processed

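Per the deposited file lists, the authors made peaks, footprints and false discovery rates of each library alone from filtered alignments to mm10 (GRCm38) (aligner, peak caller, thresholds: not given in the sources used here). Peak heights are a deposited signal; the false discovery rate is a deposited q-value per base, listed at 0.05 or less; the deposited footprint score is 0.01 throughout, so only footprint positions were used. Of 2 peak lists per library the shorter was used.

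Annotation was GENCODE M21, sequences came from the GRCm38 reference of RefSeq and the upstream stretches of Pax6 and Eomes from RefSeq's promoter table. Python 3.11.15, NumPy 2.4.6, SciPy 1.17.1 and pysam 0.24.0 were used, and merging, promoter assignment and pattern search were tested on simulated data. A site's heights are its highest peaks. Named were all 6 factors with their promoter and shared distal sites and the highest distal peak of 1 mouse alone, and from each list the 3 highest, the 2 lowest and genes with a peak in 1 mouse alone, with the 3 nearest in height. The factors, lists and patterns were chosen with earlier results of these data known. Some listed genes are counted but not reported here by name.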

Additional observations from a re-analysis of the deposited data

How the results depend on the processing

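With 1 group of 2 mice no value has a test, and depth limits a missing peak to a height the caller did not pass. No paired analysis was possible because there is 1 group. With the longer peak lists, sites in the 6 windows went from 68 to 131 and shared distal sites from 5 to 15, and Eomes took a mean promoter height of 0.256. With the higher 50% of the peaks there were 28 sites and 3 shared distal sites, and 1 of 17 Otx1 sites and 2 of 13 Pax6 sites were left. With a flank of 10 kb there were 1 shared distal site and 8 shared footprints, and with 100 kb there were 18 and 51. With the annotated gene start alone, 2 of 6 promoters had a peak in both mice, Lhx2 fell from a mean of 3.41 to 0.681 and Pax6 to 0.262; with a promoter window of 500 bp Emx2 had a mean of 1.11. TAATTA stood in 0 sites inside footprints and 0 distal sites, and GGGCGG in 8 and 8. Leaving out 1 mouse gave 17 to 64 sites, 9 to 34 distal sites, 55 to 169 footprints (55 leaves out 3 in the mouse 2 peak outside the Emx1 window), 28 to 44 listed genes with a promoter peak, and 6 to 19 sites with GGGCGG; the lower number was that of mouse 2 in each case. Scaling heights to the median shared site took the median log2 ratio from 0.50 to 0.03. An equal number of peaks per mouse kept 5 shared distal sites and left 6 of 17 Otx1 sites. The windows of 200 bp, the 1 mismatch and the count without Otx1 were added after seeing the data.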

Other observations

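With 100 kb on either side of the gene, the shared distal sites numbered 7 at Emx2, 6 at Emx1, 4 at Lhx2 and 1 at Eomes, while Otx1 and Pax6 still had 0. The 17 sites of the Otx1 window were the same in number with flanks of 10 kb and 100 kb, so that the peaks of mouse 1 stood in the gene and its near surroundings.

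By the share of the gene and 10 kb on either side under peaks of mouse 1, the 4 genes above Otx1 (24.2%) were Aspdh (34.8%), Josd2 (32.4%), Phf24 (27.3%) and Cyb561d1 (26.3%). They were named after their values were seen. In mouse 2 these genes had 4.05%, 3.82%, 2.74% and 14.7%, so that all 4 kept some peaks where Otx1 had none.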
